A study of Mus musculus with 6 samples.

Results

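The genes described here encode the proteins of the mitochondrial ribosome. They were chosen by symbol, as protein-coding genes named Mrpl or Mrps followed by a number, and 78 of the 53465 Ensembl genes counted met this rule. Of these, 49 carried an Mrpl symbol (large subunit) and 29 an Mrps symbol (small subunit). Their RNA was measured by sequencing of Smart-seq libraries from M II stage oocytes, that is, eggs arrested at the second meiotic metaphase, which had been matured in vitro. The oocytes came from ovaries of female Kunming (KM) mice, an outbred strain, aged 9 to 10 months and called aged mice by the study. The control group (3 pools) was matured without quercetin and the quercetin-treated group (3 pools) with 10 μM quercetin, a plant flavonol with antioxidant activity. Each pool combined 15 oocytes from 3 mice, and the labels name no genetic change in either group. The comparison asked how transcript levels in matured oocytes of aged mice differed with quercetin.

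The mitochondrial ribosome translates the few mRNAs that mitochondrial DNA encodes, all of which specify subunits of the respiratory chain or ATP synthase. Its rRNAs are made inside the organelle, while its proteins are encoded in the nucleus, translated in the cytosol and imported. Many of these proteins have bacterial homologues, and others exist only in mitochondria. The small subunit reads the mRNA, and the large subunit joins the amino acids and passes the chain to the inner membrane. A fully grown oocyte carries a large store of mitochondria and of maternal mRNA and makes little new RNA during its final maturation, when stored mRNAs are translated or degraded. Symbols do not fully match location: the proteins of Mrps30 and Mrps18a sit in the large subunit, and that of Mrps36 is known as a component of the 2-oxoglutarate dehydrogenase complex. They were counted under the subunit that the symbol names, except in the structural classes below. There Mrps30 was placed with the large subunit, and Mrps18a and Mrps36, and also Mrps18b, were in no class of either subunit.

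Total counts per pool ran from 7880467 to 9938743. All 13 oocyte markers examined had counts. Of 15 cumulus and granulosa cell markers, 10 had counts, while Foxl2, Amh, Amhr2, Ptx3 and Nr5a1 were at 0 in every pool. The summed level of these 15 genes was 70.2 to 86.5 CPM (counts scaled to library size with edgeR's TMM factors) in control and 91.9 to 96.8 CPM with quercetin, most of it from Cyp19a1. For 7 blood and immune markers the sum was 3.48 to 4.31 CPM in control and 3.61 to 3.99 CPM with quercetin. The part of the cumulus marker difference in the results below was not tested. In pooled oocytes, fewer cells with an RNA and less of it per cell cannot be told apart.

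Reads of some of these genes can also come from copies and neighbours. Of the 78 members, 33 had exons that overlapped another annotated gene on either strand, and 14 shared over 20% of their exon length or of their 31-base words with other genes. These 14 are uncertain: Mrpl19, Mrpl22, Mrpl24, Mrpl27, Mrpl41, Mrpl43, Mrpl47, Mrpl53, Mrps18b, Mrps18c, Mrps25, Mrps27, Mrps34 and Mrps36. Mrps36, at chr13:100735955-100744659 on the minus strand (GRCm38, GENCODE M21), was the clearest case. Its 306-base coding sequence differed at 2 of 306 bases from the processed pseudogene Mrps36-ps1 (chr17:53866715-53867020, minus strand) and at 3 of 306 bases from Mrps36-ps2 (chr7:105690259-105690567, minus strand). The first 120 coding bases of the 3 are shown from GENCODE M21 transcripts to make this sharing visible, with capitals at each position where any of them differ.
Mrps36: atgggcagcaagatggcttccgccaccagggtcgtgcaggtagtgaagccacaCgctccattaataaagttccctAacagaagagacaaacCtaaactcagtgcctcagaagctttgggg
Mrps36-ps1: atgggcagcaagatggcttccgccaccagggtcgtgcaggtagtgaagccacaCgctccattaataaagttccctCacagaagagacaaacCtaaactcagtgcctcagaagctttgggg
Mrps36-ps2: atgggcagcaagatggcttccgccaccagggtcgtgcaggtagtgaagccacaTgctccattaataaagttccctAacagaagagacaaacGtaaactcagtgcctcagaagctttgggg
In the control pools Mrps36 had 682, 512 and 683 counts, and Mrps36-ps1 had 703, 639 and 751. With quercetin Mrps36 had 583, 666 and 510 counts and Mrps36-ps1 had 688, 804 and 644. These are counts not divided by length. The pseudogene was counted more often than the gene in all 6 pools, and how the authors' counting divided such reads is not given in the sources used here.

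The members are scattered over 17 chromosomes, and 33 of 78 (42.3%) start within 1000 bases of a protein-coding gene that runs the other way, against 2378 of 21942 protein-coding genes counted (10.8%). The share was 24 of 49 for large subunit genes (49%) and 9 of 29 for small subunit genes (31%). For 18 of the 33 members a gap lay between the starts, and for 15 the transcripts overlapped, Mrpl46 and Mrps11 being neighbours of each other. The stretches between the starts of 3 such pairs are shown because they stand between a member and a neighbour described here, and are read 5′ to 3′ on the member's strand from RefSeq promoter windows of GRCm38.p6. Capitals mark CCAAT, or its reverse complement, the box bound by NF-Y.
Mrps12 to Sars2, chr7:28741822-28741991, minus strand: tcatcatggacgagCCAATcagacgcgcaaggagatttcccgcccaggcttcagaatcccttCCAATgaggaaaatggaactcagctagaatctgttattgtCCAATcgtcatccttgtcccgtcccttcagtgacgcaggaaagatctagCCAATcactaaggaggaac
Mrpl49 to Fau, chr19:6057786-6057843, minus strand: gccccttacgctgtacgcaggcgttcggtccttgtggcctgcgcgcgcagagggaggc
Mrpl32 to Psma2, chr13:14613166-14613239, minus strand: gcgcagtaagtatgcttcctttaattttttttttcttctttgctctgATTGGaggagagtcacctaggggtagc
The stretch between Mrps12, which encodes the protein of the decoding centre, and Sars2, the mitochondrial seryl-tRNA synthetase, holds 4 CCAAT boxes in 170 bases. Mrps12 had 37, 33 and 26 counts in control and 32, 21 and 22 with quercetin, while Sars2 had 0, 2 and 0 in control and 0 in all 3 quercetin pools. Mrpl32 had 341, 372 and 954 counts in control, beside 13013, 12705 and 13578 for Psma2, a proteasome subunit. Per length, the means over 6 pools were 3.19 CPM per kb for Mrps12 and 0.0121 for Sars2, 15.4 for Mrpl32 and 403.6 for Psma2, and 9.04 for Mrpl49 and 17.8 for Fau, a cytosolic ribosomal protein gene. Neighbours could thus be at very different levels, Fau and Mrpl49 less so than the other pairs shown. Among pairs not shown, some were nearly level, such as Mrps27 (2.50 CPM per kb) and Ptcd2 (2.73). Others were far apart, such as Mrps18c (2.80) and Helq (43.9). Of 20 members tested together with their neighbour, 10 had a log2 fold change of the same sign as it. The pair of Mrpl46 and Mrps11 enters this count from both sides, and pairs whose transcripts overlap are included.

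RefSeq promoter windows of 300 bases (250 before the start and 50 after it) were found for 69 of the 78 members and for 16504 protein-coding genes. The ETS core CCGGAAG, on either strand, was in 25 of the 69 windows (36.2%) and in 12.3% of all windows. AAGATGGC, the core bound by YY1, was in 12 (17.4%) against 3.29%. CCAAT was as frequent in members as elsewhere (39.1% and 38.7%), and TATAAA was in 4 windows (5.8% against 12.8%). The ETS and YY1 letters can share 3 bases, which occurred in 0 members. These are descriptions of letters in a window and do not show that a factor bound. Of the 10 members whose pools did not overlap between the groups, described below, Mrpl3, Mrpl21 and Mrps18b had the ETS core, and Mrpl49 and Mrps7 had the YY1 core.

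All 78 members had at least 1 count in some pool, and 77 or 78 were counted in each pool. Per length, taken as mean CPM over the 6 pools divided by kilobases of merged exons, the median member was at 3.32 CPM per kb, with 2.95 for large and 3.45 for small subunit genes. Levels ran from 0.0915 to 158.7 CPM per kb, a ratio of 1734. Above 10 CPM per kb lay 22 members, 36 lay between 1 and 10, and 20 lay under 1. The order of members was close between pools, with a rank correlation of 0.959 to 0.985 over 78 genes for the 15 pairs of pools, which share gene lengths and counting and are given as a description.

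**Figure D1:**
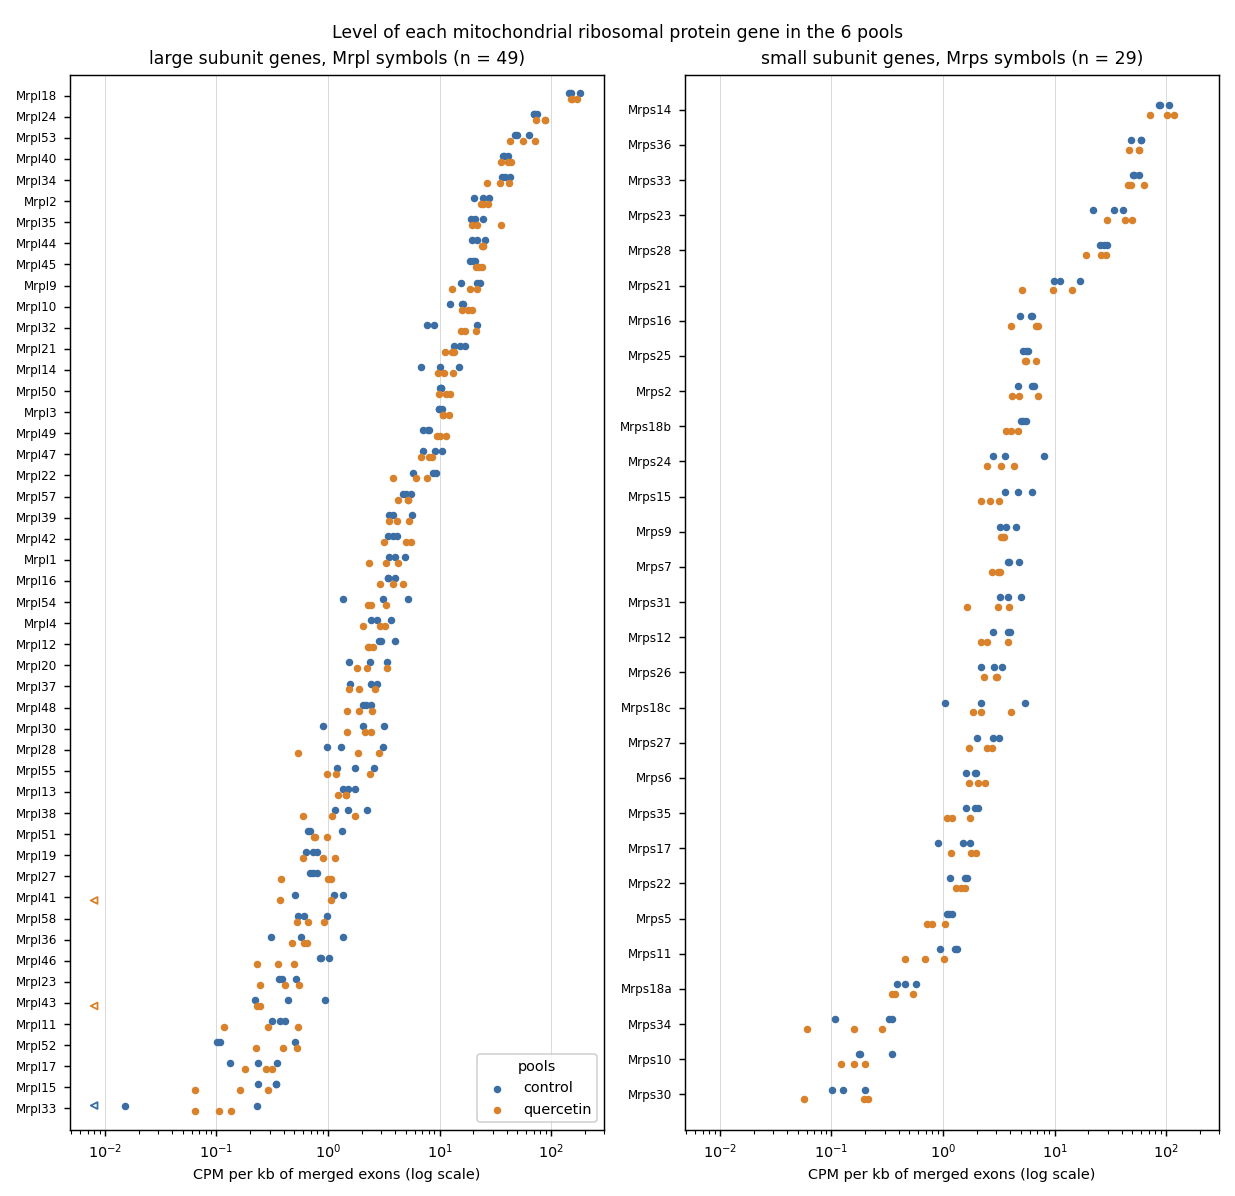
CPM per kb of merged exons (log axis) of all 78 members in each pool, large subunit genes on the left and small subunit genes on the right, ordered by mean level; blue points are the 3 control pools, orange points the 3 quercetin pools, and open triangles at the left edge are pools at 0. Members ranged from Mrpl33 at 0.0915 to Mrpl18 at 158.7 CPM per kb, and for most genes the pools of both groups lay among each other.

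The highest member per length was Mrpl18 (158.7 CPM per kb), whose protein binds the large subunit's central protuberance, followed by Mrps14 (95.7), a protein of the small subunit's head, and Mrpl24 (77.2), which lies beside the exit of the peptide tunnel and has 26.3% of its exon length in Rrnad1 on the other strand. Mrpl53 (55.0) and Mrps36 (54.9) came next. For Mrpl53, 88% of the exon length also belonged to the readthrough gene Gm42688 or the antisense gene Ccdc142os. Gm42688 had 81 counts in control pool 1 and 0 in the other 5 pools. Mrpl18, with 202.8, 211.0 and 254.7 CPM in control and 215.5, 237.7 and 209.8 CPM with quercetin, overlapped between groups. Mrps14 had 290.0, 280.7 and 343.7 CPM in control and 335.0, 387.0 and 234.5 CPM with quercetin, so that its highest and its lowest pool were both quercetin-treated. Mrpl24 had 167.0, 159.0 and 158.5 CPM in control and 199.7, 197.4 and 163.6 CPM with quercetin, and control pool 1 exceeded quercetin pool 3. Mrps14, Mrpl18 and Mrpl24 together held 35.1% of the members' summed CPM, and the 10 highest by CPM held 61.3%.

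The 5 lowest members per length were Mrpl33 (0.0915 CPM per kb), Mrps30 (0.149), Mrps10 (0.198), Mrps34 (0.214) and Mrpl15 (0.239). Several of them are core proteins with bacterial homologues: Mrpl15 and Mrpl33 in the large subunit and Mrps10 in the small. Mrps30 had 12, 7 and 6 counts in control and 3, 12 and 12 with quercetin. Mrps10 had 25, 12 and 13 counts in control and 13, 9 and 11 with quercetin. Mrpl15 had 18, 24 and 26 counts in control and 11, 5 and 21 with quercetin, overlapping between groups. The lowest places depended on the length used. With the length of the principal transcript, which was chosen after seeing the data, 4 of the 5 highest stayed among the 5 highest, but only Mrps30 and Mrps34 stayed among the 5 lowest, and the ratio of highest to lowest was 703.8.

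For the comparison of the groups, 71 members passed the filter on low counts (43 large, 28 small) among 11842 genes tested. No gene of the whole table had an adjusted p under 0.05 with a fold change over 2 by the quasi-likelihood test of edgeR (Benjamini-Hochberg, 0% of 11842), and the lowest adjusted p was 0.073 over all genes and 0.988 among members. DESeq2 gave 12 genes past both thresholds, 0 of them members. At an unadjusted p under 0.05, no member was higher with quercetin, against 2.14% of all tested genes (253), and 2 members were lower, 2.82% of the 71 against 1.89% of all tested genes (224). Of these, Mrpl46 reached the filter's minimum only in the control group, where it was higher, and with at least 10 counts required in every pool 1 member was lower. At this threshold the members' share was near that of all genes. The 3 control and 3 quercetin pools did not overlap in CPM for 3 members that were higher with quercetin (4.23%, against 5.42% of all tested genes) and for 7 that were lower (9.86%, against 5.17%).

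Below 0 on the log2 scale lay 45 of the 71 tested members (63.4%), against 53.6% of all tested genes. The median log2 fold change, quercetin over control, was -0.076 for members, with the middle 50% from -0.27 to 0.08, and -0.026 for all tested genes, with the middle 50% from -0.24 to 0.17. Large subunit genes had a median of -0.016, with 24 of 43 below 0, and small subunit genes had a median of -0.150, with 21 of 28 below 0. The difference between the subunits was not tested. The split depended on scaling and on single pools. With library size alone 54 of 71 members (76.1%) and 65.4% of all genes lay below 0, and the median of all genes was -0.11. With DESeq2's size factors 38 of 71 members (53.5%) and 51.0% of all genes lay below 0. Without control pool 2 the members' median was 0.002, and 35 of 71 (49.3%) lay below 0, against 51.9% of all genes. Without control pool 1 the members' median was -0.154, against -0.019 for all tested genes. The small subunit median remained between -0.232 and -0.102 under every alternative tried.

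**Figure D2:**
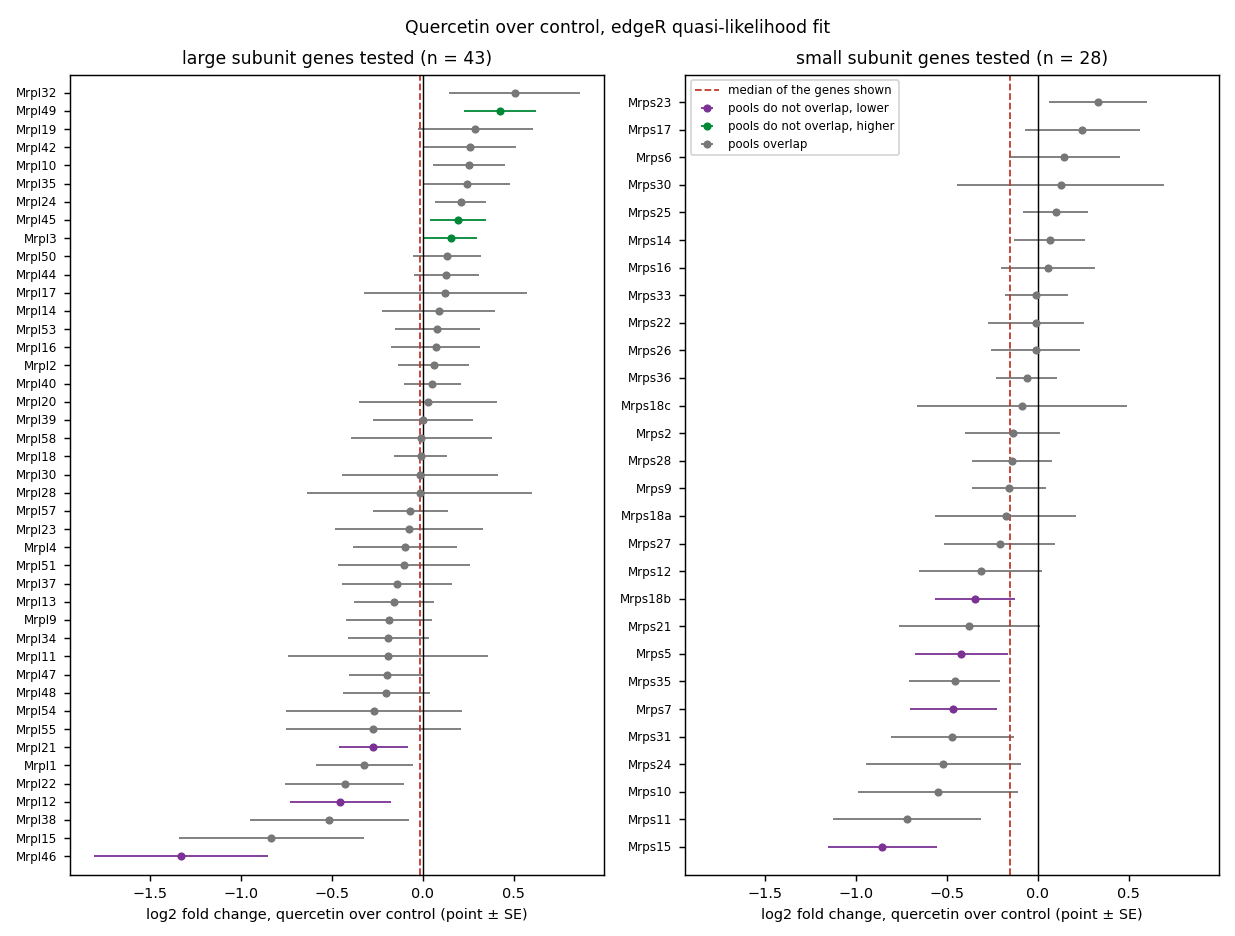
Log2 fold change of quercetin over control (horizontal axis, points ± SE from edgeR's quasi-likelihood fit) for the 43 large and 28 small subunit genes tested, ordered by value; green and purple mark genes whose pools do not overlap, and the dashed line is the median of the genes in each panel. Mrpl46 at -1.33 is the lowest and Mrpl32 at 0.51 the highest, and most points lie within 0.5 of 0.

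Mrpl46 encodes a mitochondria-specific protein of the large subunit, placed near the central protuberance, and was the member with the lowest fold change. It had 11, 10 and 13 counts in the control pools and 4, 3 and 6 in the quercetin pools. All quercetin pools lay below all control pools, at levels where counting error is large, and the gene passed the filter on low counts only through the control group. The mean was 1.30 ± 0.142 CPM in control and 0.511 ± 0.188 CPM with quercetin (SD, n = 3 pools each), a log2 fold change of -1.33 ± 0.48 (SE). Its unadjusted p was 0.0217 and its adjusted p 0.988 by edgeR's quasi-likelihood test, and the exact permutation test gave 0.1, the smallest p that 3 against 3 pools allow. Mrpl46 lies at chr7:78775236-78783531 on the minus strand and overlaps the start of Mrps11, a small subunit gene at chr7:78783119-78792989 on the plus strand, so that 12.2% of its exon length is shared. Mrps11 had 25, 17 and 26 counts in control and 12, 9 and 19 with quercetin (log2 fold change -0.72 ± 0.41, unadjusted p = 0.11 by edgeR). For Mrps11 quercetin pool 3, with 2.23 CPM, lay above control pool 2, with 2.04 CPM.

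Mrps15, the homologue of a bacterial protein that binds the small subunit's rRNA early in assembly, lies at chr4:126046925-126055532 on the plus strand and shares no exon or 31-base word with another gene. It had 71, 51 and 94 counts in control and 36, 34 and 46 with quercetin. Its level was 8.20 ± 2.23 CPM in control and 4.54 ± 0.841 CPM with quercetin, and the pools did not overlap. The nearest were control pool 2 at 6.11 CPM and quercetin pool 3 at 5.40 CPM. The log2 fold change was -0.85 ± 0.30, with an unadjusted p of 0.0187 and an adjusted p of 0.988 by edgeR's quasi-likelihood test. The unadjusted p of Mrps15 stayed under 0.05 in all alternatives but 2, those without control pool 3 and without quercetin pool 2. Mrpl46 was past that threshold in 5 of the 12 alternatives and not with DESeq2 or without any 1 pool other than quercetin pool 3, and it was removed by the filter of 10 counts in every pool. Without quercetin pool 3, 7 members had an unadjusted p under 0.05 (Mrpl15, Mrpl24, Mrpl46, Mrps5, Mrps11, Mrps15 and Mrps35), when 12.8% of all tested genes did.

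A further 5 members had quercetin pools that all lay below the control pools, none with an unadjusted p under 0.05. Mrps7, a head protein of the small subunit that contacts its rRNA, had 73, 83 and 71 counts in control and 54, 52 and 55 with quercetin (log2 fold change -0.47 ± 0.24). Mrpl12, which forms the flexible stalk that recruits translation factors, had 41, 51 and 39 counts in control and 28, 33 and 33 with quercetin (-0.45 ± 0.28). Mrps5, the homologue of a bacterial protein tied to decoding accuracy, had 64, 62 and 71 counts in control and 42, 43 and 59 with quercetin (-0.42 ± 0.26). For Mrps7, Mrpl12 and Mrps5 the nearest pools of the 2 groups lay closer together than the control pools were spread. The same held for Mrps15.

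Mrps18b had 94, 96 and 98 counts in control and 62, 78 and 83 with quercetin (-0.34 ± 0.22). Its nearest pools were at 10.5 CPM in control and 9.74 CPM with quercetin. The antisense gene Gm16279, which has 583 words of 31 bases in common with Mrps18b, had 38, 43 and 46 counts in control and 19, 34 and 32 with quercetin. Without a stated strand setting the 2 cannot be told apart. Mrpl21 had 243, 254 and 302 counts in control and 181, 246 and 224 with quercetin (-0.27 ± 0.19). Its lowest control pool, 27.2 CPM, was next to its highest quercetin pool, 26.9 CPM.

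The 3 members with all quercetin pools above the control pools were large subunit genes. Mrpl49, a mitochondria-specific protein, had 120, 126 and 133 counts in control and 153, 164 and 181 with quercetin, or 14.5 ± 0.920 and 19.4 ± 1.68 CPM, with a log2 fold change of 0.42 ± 0.20 (unadjusted p = 0.0585 by edgeR). Its neighbour Fau, 59 bases from it start to start, had 120, 196 and 190 counts in control and 114, 123 and 142 with quercetin. Mrpl45, which helps to tether the ribosome to the inner membrane at the tunnel exit, had 435, 446 and 462 counts in control and 473, 569 and 466 with quercetin (0.19 ± 0.16), with 53.5 CPM in its highest control pool and 54.7 CPM in its lowest quercetin pool. Mrpl3, one of the core proteins near the peptidyl transferase centre, had 593, 548 and 620 counts in control and 648, 661 and 604 with quercetin (0.15 ± 0.15). The highest fold change of all was that of Mrpl32, but its pools overlapped: 38.1, 44.6 and 107.0 CPM in control and 84.4, 106.7 and 78.3 CPM with quercetin (0.51 ± 0.36), with control pool 3 above all others. Without that pool its log2 fold change was 1.13 and its unadjusted p 0.00107 by edgeR. Taking out the highest control pool was bound to raise the fold change, so neither value is a separate result. Over the 12 alternatives, by edgeR or DESeq2, the log2 fold change of Mrpl32 ran from 0.246 to 1.13, and its lowest adjusted p was 0.597. Mrpl32 is named here after its value was seen.

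**Figure D3:**
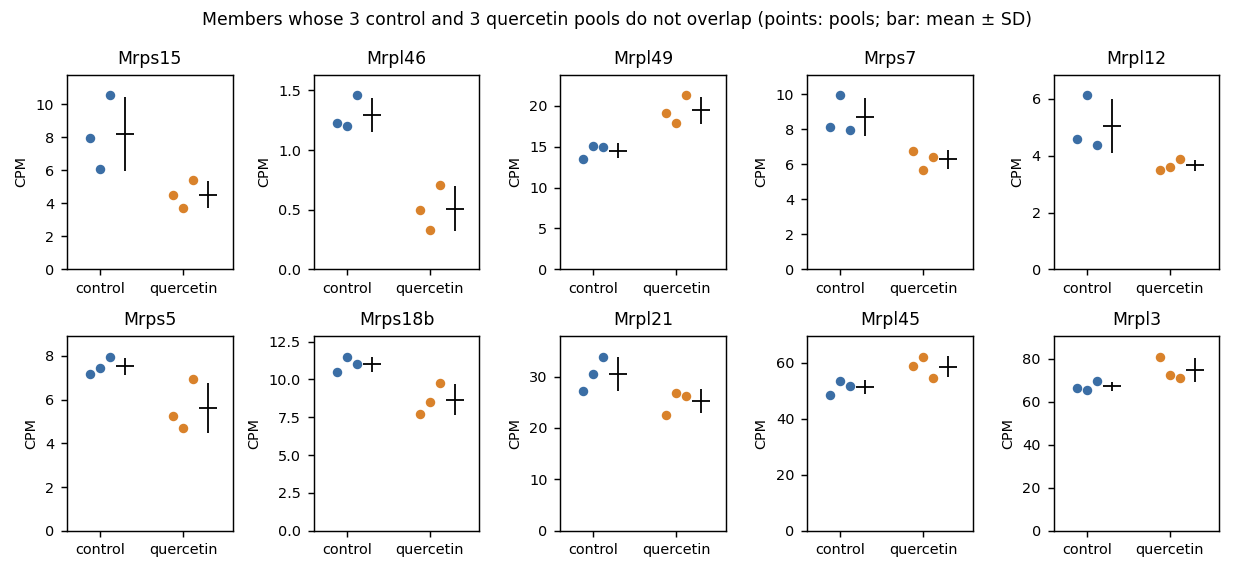
TMM-scaled CPM (vertical axes, from 0) in each control and quercetin pool of the 10 tested members whose groups do not overlap, with the mean ± SD of 3 pools as a black bar beside the points. Group means run from 0.511 CPM (Mrpl46, quercetin) to 74.7 CPM (Mrpl3, quercetin), and 7 genes are lower and 3 higher with quercetin. For all but Mrpl46 the nearest pools of the groups lie closer together than the pools within a group are spread.

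By structural class, the 27 tested large subunit proteins with a bacterial homologue had a median log2 fold change of -0.017 (16 below 0), and the 17 tested mitochondria-specific ones, Mrps30 among them, had 0.002 (8 below 0). Among small subunit proteins, the 16 with a bacterial homologue had a median of -0.24, with 12 below 0 and Mrps15, Mrps7 and Mrps5 not overlapping between groups, while the 8 mitochondria-specific ones tested had -0.011, with 6 below 0 and all overlapping, beside 5.17% of all tested genes whose quercetin pools lay below the control pools. Mrps18a, Mrps18b and Mrps36 were in neither small subunit class, and Mrps18b also did not overlap between the groups. The difference between these classes was not tested. The mitochondria-specific proteins near the central protuberance had a median of -0.20 over 5 tested genes, Mrpl46 among them, and the proteins around the peptide exit site 0.024 over 6.

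The stalk and its base gave mixed values. Mrpl12 has been given above. Mrpl10, which anchors the stalk, had 244, 177 and 249 counts in control and 244, 306 and 233 with quercetin (0.26 ± 0.20). Mrpl11, at the stalk base, had 12, 10 and 9 counts in control and 3, 16 and 8 with quercetin (-0.19 ± 0.55). Mrpl54 had 10, 36 and 23 counts in control and 16, 25 and 16 with quercetin (-0.27 ± 0.48), and Mrpl53 a log2 fold change of 0.081 ± 0.232. All 4 overlapped between the groups. So did Mrps12 of the decoding centre, whose counts are given above (-0.31 ± 0.34).

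Mammals have 3 paralogues of bacterial S18, and they sit at different places in the ribosome. All 3 were measured at low to moderate level and all had a fold change below 0, with a median of -0.175. Mrps18a had 19, 12 and 15 counts in control and 11, 18 and 11 with quercetin (-0.18 ± 0.39). Mrps18c had 10, 49 and 21 counts in control and 16, 40 and 20 with quercetin (-0.085 ± 0.578), with its highest value in pool 2 of both groups. Mrps18b alone of the 3 did not overlap between the groups.

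The 7 members that did not pass the filter were Mrpl27, Mrpl33, Mrpl36, Mrpl41, Mrpl43, Mrpl52 and Mrps34, and they were not compared. None exceeded 14 counts in any pool. Mrpl33 had 1, 14 and 0 counts in control and 8, 7 and 4 with quercetin. Mrpl43 had 6, 12 and 3 counts in control and 3, 0 and 3 with quercetin, and 33.4% of its exon length overlaps another gene. Mrpl41 had 9, 10 and 4 counts in control and 0, 3 and 8 with quercetin. A pool with no count allows up to 3 counts, or 0.302 to 0.381 CPM by library size, and this limit covers counting error only.

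Summed over all 78 members the level was 1879, 1966 and 2113 CPM in control and 2026, 2264 and 1868 CPM with quercetin, or 1986 ± 118 and 2053 ± 199 CPM (SD, n = 3), with the highest and the lowest pool both quercetin-treated. For large subunit genes the sums were 1226 ± 96.8 and 1296 ± 98.6 CPM, and for small subunit genes 760 ± 24.3 and 756 ± 106 CPM. Members thus held 0.192% to 0.212% of all counts in every pool. Single pools stood out by the number of members rather than by the sum. Control pool 2 was the highest of the 6 pools for 25 of the 71 tested members (35.2%), against 17.8% of all tested genes, and quercetin pool 1 was the lowest for 19 (26.8%), against 16.8%.

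The pathway was followed further in genes from lists of known function. Of 5 mitochondrial ribosomal proteins with other symbols, Gadd45gip1, whose product (CRIF1) lies at the tunnel exit of the large subunit, had 99, 136 and 112 counts in control and 47, 35 and 66 with quercetin, without overlap. Its level was 13.3 ± 2.69 and 5.81 ± 1.96 CPM, with a log2 fold change of -1.20 ± 0.31, an unadjusted p of 0.00375 and an adjusted p of 0.988 by edgeR's quasi-likelihood test. The unadjusted p was under 0.05 in each of the 12 alternatives, where the log2 fold change ran from -1.46 to -0.96. The gene was picked by its unadjusted p and the alternatives reuse the same pools, so this is not separate support. It was 1 of 5 genes (20%), against 1.89% of all tested genes lower at that threshold and 5.17% lower without overlap. Ptcd3, a small subunit protein, had quercetin pools above the control pools (0.28 ± 0.17), 20% of the 5 against 5.42% of all tested genes. Dap3, Chchd1 and Aurkaip1, all of the small subunit, had fold changes of -0.11, -0.056 and -0.23 on the log2 scale and overlapped.

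Of 28 assembly factors, which process and modify rRNA or help the subunits to form, 18 were tested, and 4 had an unadjusted p under 0.05, all higher with quercetin (22.2% against 2.14% of all tested genes). Fastkd2, an RNA-binding protein needed for the large subunit's rRNA, had 281, 142 and 224 counts in control and 399, 336 and 315 with quercetin (0.75 ± 0.26). Mtg1, a GTPase of large subunit assembly, had 44, 33 and 29 counts in control and 50, 69 and 50 with quercetin (0.70 ± 0.28). Rpusd4, a pseudouridine synthase, had 272, 144 and 324 counts in control and 354, 352 and 452 with quercetin (0.69 ± 0.28). Mettl15, which methylates the small subunit's rRNA, had 430, 377 and 405 counts in control and 482, 653 and 458 with quercetin (0.42 ± 0.17). In all 4 the quercetin pools lay above the control pools, as they did in Nsun4 (0.33 ± 0.16), another methyltransferase of that rRNA. These 5 genes were 27.8% of the 18 tested, against 5.42% of all tested genes. For the 4 picked by unadjusted p this adds little, since both measures rest on the same pools. The list's median was 0.029, with 10 of 18 above 0. Without control pool 2 and without quercetin pool 1 the count of 4 became 0, without control pools 1 or 3 or quercetin pool 2 it was 2, and with library size only it was 1. In the fit as reported no assembly factor had an adjusted p under 0.988 by edgeR's quasi-likelihood test.

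Of 15 translation factors 11 were tested, with a median of 0.016 and none at an unadjusted p under 0.05. The initiation factor Mtif3 had 215, 159 and 173 counts in control and 129, 71 and 157 with quercetin, and the recycling factor Mrrf had 149, 143 and 139 in control and 89, 117 and 117 with quercetin. Both had quercetin pools below the control pools (18.2% of the 11, against 5.17% of all tested genes). Of 20 mitochondrial aminoacyl-tRNA synthetases and related genes 9 were tested, with a median of 0.11 and none at an unadjusted p under 0.05. Among these 9, Mars2 had quercetin pools above the control pools (11.1%, against 5.42% of all tested genes). Most of the synthetases not tested had few counts, with Hars2 at 0 in every pool.

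**Figure D4:**
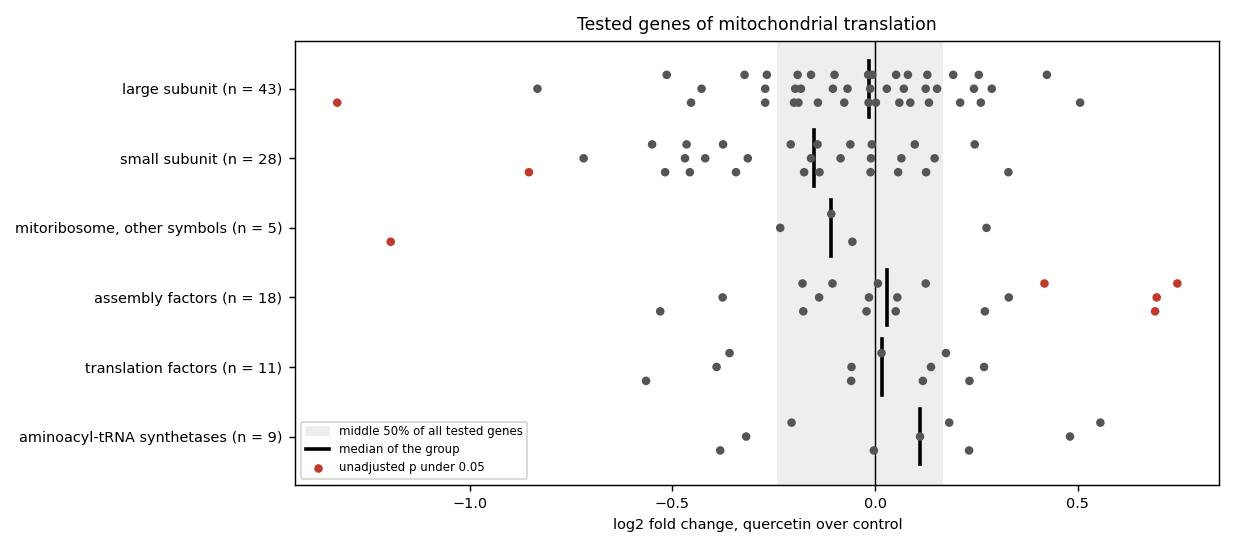
Log2 fold change of quercetin over control (horizontal axis) for each tested gene of the large subunit, the small subunit and the 4 related lists; red points have an unadjusted p under 0.05, black bars are group medians, and the grey band holds the middle 50% of all tested genes. Group medians lie between -0.15 and 0.11; red points are Mrpl46, Mrps15 and Gadd45gip1 on the left and 4 assembly factors on the right.

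The mRNAs that this ribosome translates were also counted. The 13 protein genes of mitochondrial DNA summed to 26864, 24421 and 22319 CPM in control and 22049, 21759 and 17708 CPM with quercetin, or 24535 ± 2275 and 20506 ± 2427 CPM. The groups did not overlap, but the lowest control and the highest quercetin pool differed by less than the SD of either group. These 13 genes held 1.86% to 2.77% of all counts per pool.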

How the data were processed

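Smart-seq libraries of 6 oocyte pools were sequenced, 3 control and 3 quercetin-treated, grouped and numbered by the sample labels, which do not say whether pools shared mice, so that p-values measure only the spread between these pools. The authors aligned reads to GRCm38 and deposited raw counts per Ensembl gene, and the submitters' processing notes name CASAVA 1.8 and TopHat2 2.0.6 while the paper's methods name Hisat2. The counting program, its strand setting and its treatment of reads with several matches are not given in the sources used here, and sequences shared between genes can therefore shift counts between them.

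Genes were named from GENCODE M21 on GRCm38, which matched 53360 identifiers. Of 24476 genes with a count, 11842 remained after edgeR's filterByExpr (version 4.0.16, minimum 10), a filter that a gene can pass through the higher group alone. Counts were scaled by TMM and the groups compared by glmQLFit and glmQLFTest without covariates in R 4.3.3, adjusting p by Benjamini-Hochberg across the whole tested table. A call needed an adjusted p under 0.05 and a fold over 2. For single genes an exact permutation test, two-sided, was run on log2(CPM + 0.5), whose smallest p is 0.1 for 3 against 3. The fit was tested on simulated counts.

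Members were protein-coding genes whose symbol is Mrpl or Mrps and a number. Members, gene lists and tests were chosen with earlier results of these data known. Named were members with an unadjusted p under 0.05, and up to 5 more in each direction whose pools do not overlap. The 5 highest and 5 lowest per length, those not tested, the S18 paralogues, the stalk and Mrps12 were also named. So were pathway genes with an unadjusted p under 0.05 (at most 4 per list). Mrps11, Mrpl32, Ptcd3, Nsun4, Mtif3, Mrrf, Mars2 and Hars2 were added after their values were seen. Of the listed pathway genes, Trmt61b and Mtrfr had no protein-coding entry under that symbol. Same-numbered pools did not deviate together in each pair (correlations 0.305, 0.0923 and -0.0313 over 11842 genes), so the numbers were not taken as pairs. The mean correlation was 0.122 for same-numbered pools and -0.0611 for differently numbered ones. Deviations were taken from each group's own mean, so the second value nearly follows from the first. Python 3.11.15, pandas 2.3.3, numpy 2.4.6 and matplotlib 3.10.9 were used for annotation and plots, DESeq2 1.42.0 as an alternative. Alternatives were other scalings, filters and tests, the replicate block, and each pool left out in turn. Promoter windows came from RefSeq on GRCm38.p6 and transcripts from GENCODE; protein sequences were not used here. Oocyte maturation, imaging and the human samples of the study were not analysed here.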

Additional observations from a re-analysis of the deposited data

How the results depend on the processing

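No member had an adjusted p under 0.05 with a fold change over 2 under any of the 12 alternatives run. Of the whole table, 7 genes or fewer passed both thresholds when a pool was left out (0 to 7). With DESeq2 12 did and with all genes of at least 1 count 3 did, against 0. Genes with an unadjusted p under 0.05 numbered 780 with that wider filter and 241 to 1563 with a pool left out (lowest without control pool 2, highest without quercetin pool 3), against 477. Members with an unadjusted p under 0.05 were 1 with DESeq2, 1 with at least 10 counts in every pool and 0 to 7 with a pool left out, against 2, and those lower were 1, 1 and 0 to 6. Assembly factors higher at that threshold were 1 with library size only and 0 to 4 with a pool left out, against 4. The large subunit median was -0.116 with library size only and -0.150 to 0.037 with a pool left out, against -0.016. With the replicate block the count of members was again 2, and Mrps18c was at 0.053 in place of -0.085; same-numbered pools were not taken as pairs, since only the first pair correlated clearly (0.305), and the other named genes kept their sign under it.

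Values near 0 changed sign as follows: Mrpl18 (-0.012) was 0.005 with DESeq2 and with DESeq2's size factors, and -0.073 to 0.103 with a pool left out; Mrps14 (0.065) was -0.032 and Mrpl53 (0.081) -0.015 with library size only. With a pool left out, Mrps14 ran from -0.096 to 0.246, Mrpl53 from -0.121 to 0.252, Mrps36 from -0.157 to 0.030, Mrps30 from -0.145 to 0.507, Mrps18c from -0.506 to 0.746, Mrpl11 from -0.824 to 0.188 and Mrpl54 from -0.634 to 0.256. The 10 members without overlap kept their direction in all alternatives that could be fitted. With a pool left out this was nearly fixed by their selection, since all their quercetin pools lie on the same side of the control pools. The cause of these changes was not tested. The count of assembly factors and the median over all genes under each setting, and levels per principal transcript, were added after seeing the data.

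At 7880467 to 9938743 counts per pool, genes under about 10 counts, such as Mrpl46, rest on few reads, and 3 pools a group allow no exact p under 0.1. The members' counts were not adjusted for transcript sharing, and levels per length depend on which exons are counted as part of a gene.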
